A study of Mus musculus with 12 samples.

Results

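Homeobox and paired-box genes outside the Hox clusters were examined in the brainstem of mouse pups that had received morphine or saline after birth. The members were the genes whose symbols belong to 11 families, namely *Pou* (15 genes), *Nkx* (14), *Pax* (9), *Lhx* (8), *Irx* (6), *Dlx* (6), *Six4* and its relatives (6), *Pbx* (4), *Meis* (3), *Onecut* (3) and *Barhl* (2), which gave 76 of the 55418 genes in the count table. RNA-seq counts came from 12 outbred CFW mice (Swiss Webster) at P15, with 3 mice of each sex in each treatment group and a library from every mouse. Morphine pups had received 15 mg/kg morphine, and the controls saline, 2 times daily from P1 to P14, and brainstem was collected 16 h after the last injection, a time at which the study examined spontaneous withdrawal. No transgene or deletion was involved, the labels do not give the dam of any mouse, and the deposited extraction protocol names spinal cords although every sample is labelled brainstem. Libraries are named here by sex and by the replicate number in the labels (saline males 1 to 3, saline females 4 to 6, morphine females 1 to 3, morphine males 4 to 6).

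Homeodomain proteins bind DNA through a fold of helices, the last of which lies in the major groove, and many of them set the identity of neurons along the axes of the developing neural tube. Pbx and Meis proteins bind DNA together with Hox proteins, which pattern the hindbrain, while Pax proteins bind through a paired domain with or without a homeodomain. Many of these genes stay active after birth in the neurons and glia they helped to specify, which include motor, noradrenergic, and inhibitory neurons of the brainstem, as well as oligodendrocytes.

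The homeobox stretches of 3 sets of members are shown because these members recur in the comparisons below. Those comparisons use counts over whole genes, not over these stretches. *Irx5* and *Irx6* were the members that passed the thresholds, and *Nkx6-2* and *Meis3* had levels that spread widely among the libraries, *Meis3* unlike its paralogs. Each stretch was read in the coding direction from the spliced coding sequence of GENCODE M21 on GRCm38. Capitals mark bases that differ from the member given at the start of its set, which is printed in lower case throughout.
Irx5 (chr8:92359624-92359812, + strand): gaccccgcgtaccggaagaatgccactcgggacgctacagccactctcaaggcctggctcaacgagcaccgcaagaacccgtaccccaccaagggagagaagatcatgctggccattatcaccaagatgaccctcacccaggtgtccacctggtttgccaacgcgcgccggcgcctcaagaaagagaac
Irx6 (chr8:92677233-92677421, + strand): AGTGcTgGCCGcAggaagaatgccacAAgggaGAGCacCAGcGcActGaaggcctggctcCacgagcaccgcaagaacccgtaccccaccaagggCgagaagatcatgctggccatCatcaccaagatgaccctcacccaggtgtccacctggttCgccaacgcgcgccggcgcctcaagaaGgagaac
Nkx6-2 (chr7:139581647-139582018, - strand, across an intron): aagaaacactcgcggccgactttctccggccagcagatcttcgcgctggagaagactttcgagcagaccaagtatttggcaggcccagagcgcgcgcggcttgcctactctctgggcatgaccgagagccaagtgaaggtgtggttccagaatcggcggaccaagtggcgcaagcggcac
Meis3 (chr7:16182394-16184074, + strand, across introns): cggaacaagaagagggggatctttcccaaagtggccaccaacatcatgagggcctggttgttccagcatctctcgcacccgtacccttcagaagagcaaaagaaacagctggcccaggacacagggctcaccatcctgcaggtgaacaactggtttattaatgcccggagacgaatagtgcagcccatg
Meis1 (chr11:18885615-18941733, - strand, across introns): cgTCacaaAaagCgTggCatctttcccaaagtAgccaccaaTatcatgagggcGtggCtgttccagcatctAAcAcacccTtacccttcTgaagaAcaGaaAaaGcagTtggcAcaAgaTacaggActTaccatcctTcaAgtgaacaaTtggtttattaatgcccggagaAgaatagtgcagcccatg
Meis2 (chr2:115868767-116000205, - strand, across introns): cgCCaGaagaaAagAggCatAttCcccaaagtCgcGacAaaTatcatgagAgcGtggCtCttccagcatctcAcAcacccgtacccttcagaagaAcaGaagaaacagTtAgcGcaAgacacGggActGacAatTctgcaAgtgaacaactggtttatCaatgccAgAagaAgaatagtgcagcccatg
Of 189 bases, *Meis1* differed from *Meis3* at 29 and *Meis2* at 34, of which 23 and 28 were at the third position of a codon, and each differed in 2 of 63 residues. *Irx6* differed from *Irx5* at 27 of 189 bases and in 9 residues. The stretch had a GC content of 54.0% in *Meis3*, against 46.0% in *Meis1* and 47.6% in *Meis2*, and of 60.6% in *Nkx6-2*. *Irx5* and *Irx6* were alike at 60.3% and 62.4%. A homeodomain motif (tryptophan or phenylalanine, then phenylalanine or tyrosine, any residue, asparagine, any residue and arginine) was found in the longest coding sequence of 69 of the 76 members. The 7 without it included *Pax1*, *Pax2*, *Pax5*, *Pax8* and *Pax9*.

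The 12 libraries held 27850565 to 48097947 counts on genes. All 10 brainstem neuron markers that were checked were detected. Levels are given as CPM, that is counts scaled to a common library size. The library labelled morphine male 6 had *Xist* at 379.9 CPM, against at most 2.71 CPM in the other males, and *Ddx3y* at 12.8 CPM, against 117.8 to 198.8 CPM. It was kept in its labelled group, and the calls of named members that changed without it are given below. Saline males 1 and 2 stood apart from the other 10 libraries in many genes, as described below. In bulk RNA, fewer cells of a type and less RNA per cell cannot be told apart.

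Counts were found in at least 1 library for all members except *Nkx3-2*, *Six6*, *Nkx2-5*, *Pou5f1* and *Nkx2-3*, which had 0 counts in every library. A count of 0 allows up to 3 counts in a library, for counting error only. The level of each gene was expressed as CPM per kb of exon, so that genes can be compared. *Pbx2* had the highest level, at 10.5 ± 1.65 CPM per kb (SD, n = 12). It was followed by *Meis2* (8.28 ± 0.747), *Pou6f1* (8.24 ± 1.11), *Pou3f3* (8.14 ± 0.691) and *Pbx3* (7.69 ± 0.701), whose ranges over the libraries overlapped. These leading genes are Hox cofactors and POU-domain factors of neurons.

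**Figure D1:**
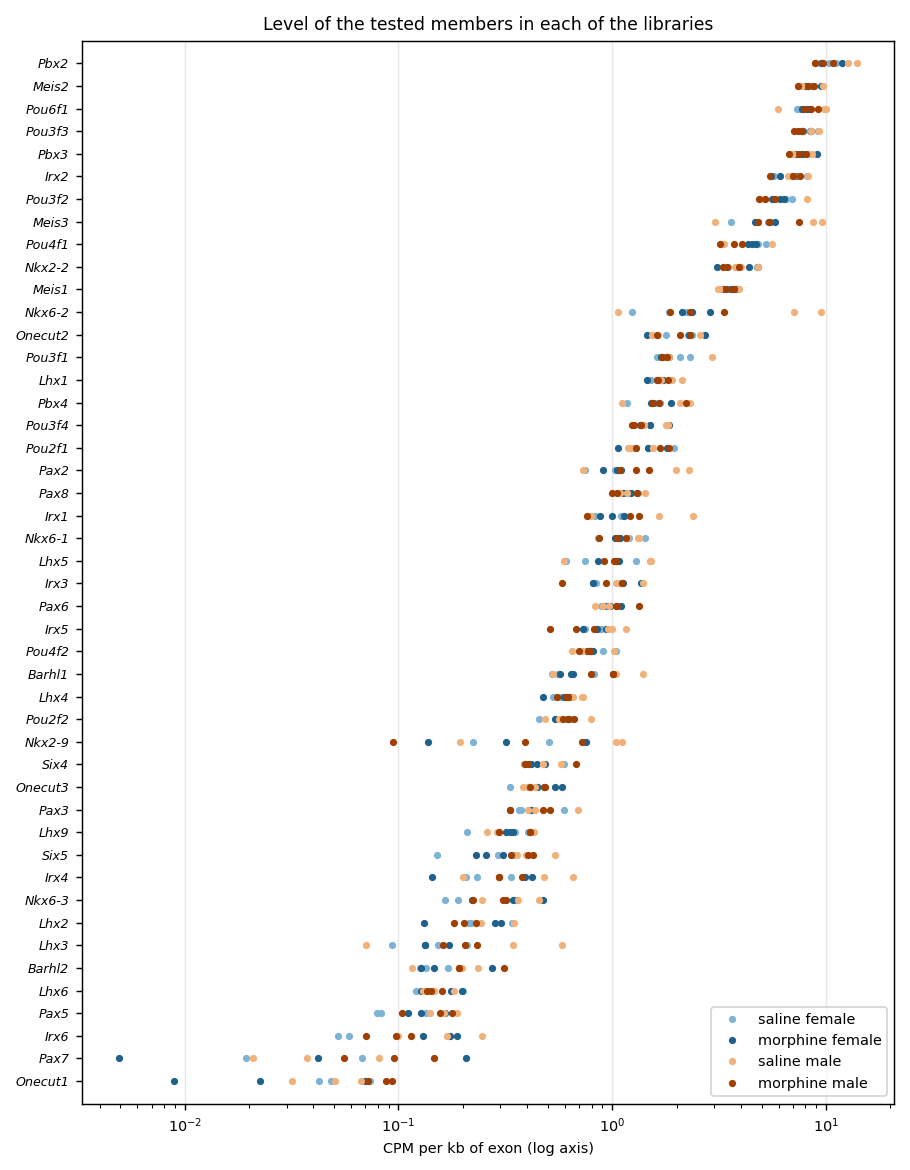
Level of 46 of the 49 members tested in all mice together, in CPM per kb of exon on a log axis, with 1 point per library colored by group and genes ordered by mean. *Pbx2* is highest at a mean of 10.5 CPM per kb, *Nkx6-2* spans 1.06 to 9.42 CPM per kb, and the 0 counts of *Pax7* in saline female 4 cannot be drawn on this axis.

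Among the members below these were patterning factors of the neural tube. *Irx2*, an Iroquois factor, was at 6.84 ± 0.971 CPM per kb (SD, n = 12), while *Nkx2-2*, which acts in ventral progenitors and oligodendrocyte precursors, was at 3.96 ± 0.599, and *Nkx6-2*, which is also active in oligodendrocytes, at 3.14 ± 2.51. The LIM factor *Lhx1* was at 1.71 ± 0.174 CPM per kb, and *Pax2* and *Pax8*, both active in inhibitory interneurons, were at 1.23 ± 0.473 and 1.19 ± 0.125. *Pax6*, known from the rhombic lip and cerebellar granule cells, was at 0.995 ± 0.131. *Onecut2* was at 2.05 ± 0.428 and *Onecut3*, which takes part in the development of noradrenergic neurons, at 0.446 ± 0.0694. *Barhl1* was at 0.795 CPM per kb, *Six4* at 0.470 and *Six5* at 0.337.

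The 6 Dlx genes, some of which mark forebrain inhibitory neurons, were near the limit of detection. The highest of them, *Dlx2*, was at 0.0714 ± 0.0810 CPM per kb (SD, n = 12), and *Dlx6* was at 0.0392 ± 0.0260. None of the 6 passed the filter on low counts. In all, 49 members passed it in the fit of all mice and in males, and 47 passed in females. The other 27 had at most 91 counts over all libraries, 5 of them with none. Genes such as *Pax7* and *Onecut1* were tested in males but not in females, since the filter asks for counts in as many libraries as a group holds.

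Members often lie beside each other in the genome, and neighbours had unlike levels. There were 27 members in 11 clusters whose genes lay within 1 Mb of the next. On chromosome 8, *Irx3* was at 1.02, *Irx5* at 0.845 and *Irx6* at 0.131 CPM per kb. On chromosome 13, *Irx2* was at 6.84, between *Irx1* at 1.19 and *Irx4* at 0.336. On chromosome 2, *Nkx2-2* was at 3.96 while its neighbours *Nkx2-4* and *Pax1* were at 0.00211 and 0.0262, and on chromosome 12 *Nkx2-9* was at 0.519 beside *Nkx2-1* at 0.00253. *Irx3* and the low neighbours were named after their values were seen, as the rest of each cluster. Other genes overlapped the exons of 26 members. The strand setting of the counting is not given in the sources used here, so reads of a member and its antisense partner may be mixed, as for *Nkx6-2*, where *Inpp5a* covers 12.9% of the exon bases on the opposite strand. For *Onecut1*, 52.8% of the exon bases are shared with *Gm20649* on the same strand.

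The study asked whether morphine changed brainstem expression in the sexes together and in each sex. A gene was called where the log2 fold change exceeded 0.26 in either direction and edgeR's quasi-likelihood test gave an unadjusted *p* under 0.05, and SE is the standard error of a log2 fold change. With the sexes together and sex as a covariate, 0 of 49 members were called. Over all 19027 genes tested, 1.24% were called. At an unadjusted *p* under 0.05 alone there were also 0 members, against 1.36% of all genes, and exactTest of edgeR and the Wald test of DESeq2 likewise called 0 members. The median log2 fold change of the members was -0.07, against -0.02 over all genes tested, and 19 of 49 members (38.8%) were above 0, against 42.5% of all genes. The 6 morphine and the 6 saline libraries overlapped for every member, whereas they did not for 0.0473% of all genes. With all libraries in, no adjusted *p* of a member was under 0.985 with the sexes together, in either sex or for the interaction. These *p* values set a change against the spread among libraries that a fit leaves. With a library from every mouse, differences between mice and between libraries are not separated.

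*Onecut3* came closest to the thresholds. It was at 1.82, 2.08 and 1.93 CPM in saline males 1 to 3 and at 1.92, 1.58 and 2.15 CPM in saline females 4 to 6. In morphine females 1 to 3 it was at 2.58, 2.13 and 2.79 CPM, and in morphine males 4 to 6 at 1.96, 2.29 and 2.30 CPM. Of the morphine libraries, 4 lay above all saline libraries, and morphine female 2 and morphine male 4 lay within their range. The log2 fold change was 0.30 (SE 0.14, adjusted *p* = 1.00, edgeR's quasi-likelihood test). Its unadjusted *p* was just over 0.05, so it was not called. It passed in 4 of 11 other settings and in 3 of 12 fits that left out a library, with log2 fold changes of 0.21 to 0.34. With the filter on low counts applied by the design matrix in place of the groups, *Onecut3* was called. The log2 fold changes were 0.40 (SE 0.23) in females and 0.16 (0.20) in males, and their difference was -0.22 (0.28).

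*Pax6* was similar in size. It ranged from 9.66 to 11.4 CPM in the 6 saline libraries, with a median of 10.9, and from 10.8 to 15.6 CPM in the 6 morphine libraries, with a median of 12.2. The log2 fold change was 0.23 (SE 0.11, adjusted *p* = 1.00, edgeR's quasi-likelihood test). In males it was 0.34 (0.18), with saline males 1 to 3 at 9.66, 10.6 and 11.3 CPM and morphine males 4 to 6 at 12.4, 15.6 and 12.1 CPM. These male groups did not overlap, but the change was not called. *Pax6* was called in males with scaling by total counts (0.46), in the fit of all mice and without saline male 3 (0.43), and with the sexes together it was called with total counts (0.27). It was at 0.27 in males without morphine male 5 and at 0.21 without saline males 1 and 2, and was called in neither. Of 12 markers of cerebellar granule cells, where *Pax6* is active, 9 were above 0 in males, against 37.6% of all genes. In females 6 of the 12 were above 0. In males 4 (*Reln*, *Cbln3*, *Gabra6* and *Fat2*) were called higher, where 2.99% of all genes were called. The summed level of the 12 was 326 to 431 CPM in morphine males and 298 to 340 CPM in saline males, so these groups overlapped. *Gabra6* was at 19.1 CPM in morphine male 5, against 3.02 to 8.66 CPM in the other libraries except saline female 5, at 0.790. The part of granule cells in the level of *Pax6* was not tested.

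The best expressed members differed little between treatments. *Pou3f3*, a POU factor of developing neurons, was at 52.7 to 63.2 CPM in morphine mice and 56.9 to 68.8 CPM in saline mice, with a log2 fold change of -0.15 (SE 0.07). The log2 fold changes of *Meis2*, *Pbx2*, *Pbx3*, *Pou6f1*, *Irx2* and *Lhx1* were 0.06, -0.11, 0.01, 0.04, -0.14 and -0.07, with SEs between 0.09 and 0.12. For *Nkx2-2*, *Pax8*, *Onecut2*, *Barhl1*, *Six4* and *Six5* they lay between -0.11 and 0.04, with SEs up to 0.21. Changes of sparse members were poorly determined. *Pax7*, a factor of the dorsal midbrain, had 0 to 33 counts in a library and a log2 fold change of 1.28 (SE 0.71).

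In females, 0 of 47 members were called by edgeR's quasi-likelihood test, where 1.81% of 18109 genes were called. At an unadjusted *p* under 0.05 alone there were 0 members too, against 1.89% of all genes, and exactTest and DESeq2 called 0. The median over the members was 0.00 on the log2 scale and that over all genes -0.01, and 25 of 47 members (53.2%) were above 0, against 48.2% of all genes. The female groups did not overlap for 1 member, *Pou4f1*, a factor of sensory and projection neurons that was named after its values were seen. It was at 22.03 to 24.4 CPM in saline females and 20.1 to 22.02 CPM in morphine females, and 5.65% of all genes had groups that did not overlap.

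Among members with few counts or a wide spread, *Irx6* had a log2 fold change of 0.81 (SE 0.51) in females and *Nkx6-2* one of 0.46 (0.23). That of *Irx6* was 1.55 and called without saline female 5, and 0.52 and not called without saline female 4. *Nkx6-2* was at 4.23, 3.52 and 2.35 CPM in saline females 4 to 6 and at 5.44, 4.03 and 4.48 CPM in morphine females 1 to 3. It had the smallest unadjusted *p* of the members in females, over 0.05, and was called without saline female 4 (0.65) and with no filter on low counts. Without saline female 6 its log2 fold change was 0.27.

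In males, 1 of 49 members was called by edgeR's quasi-likelihood test, *Irx5*, which fell with morphine. The share called was 2.04%, against 2.99% of 18166 genes, of which 1.07% were called lower. The median log2 fold change of the members was -0.17, against -0.06 for all genes, and 12 of 49 (24.5%) were above 0, against 37.6% of all genes. Groups did not overlap for 6 members (12.2%), against 9.1% of all genes. Besides *Irx5* and *Pax6* these were *Lhx4*, *Nkx6-1* and *Pou3f4*, lower in morphine males, and *Onecut1*, higher, all of them named after their values were seen.

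*Irx5* (ENSMUSG00000031737, chromosome 8 from 92357625 to 92376286) encodes an Iroquois factor that patterns the neural tube and heart. It was at 3.13, 2.98 and 3.61 CPM in saline males 1 to 3 and at 2.56, 1.61 and 2.13 CPM in morphine males 4 to 6. Saline males were thus all above morphine males. In females the groups overlapped, at 2.32 to 2.77 CPM with saline and 2.28 to 2.94 CPM with morphine. The log2 fold change in males was -0.63 (SE 0.24, adjusted *p* = 1.00, edgeR's quasi-likelihood test) and in females 0.00 (0.20). The difference between the sexes was -0.61 (0.30) and was not called. *Irx5* remained called in males in 7 of 9 other settings and in 2 of 6 fits without a library, those without saline male 2 and without morphine male 4. Its log2 fold change ranged from -0.81, without saline males 1 and 2, to -0.42, without morphine male 5, and it was -0.65 and not called without morphine male 6. With scaling by total counts it was -0.51 and not called.

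*Irx6* (ENSMUSG00000031738, chromosome 8 from 92674288 to 92680956), the neighbour of *Irx5*, was the member called for the interaction of treatment and sex. This made 1 of 49 members (2.04%), against 2.94% of 19027 genes. Those called with a negative interaction, as *Irx6* was, made up 1.33% of all genes. The interaction was above 0 for 12 of 49 members (24.5%) and 45.6% of all genes. *Irx6* was sparse, with 6 to 38 counts in a library. It was at 0.175, 0.577 and 0.198 CPM in saline females 4 to 6 and at 0.584, 0.634 and 0.440 CPM in morphine females 1 to 3. In males it was at 0.566, 0.831 and 0.337 CPM with saline and at 0.238, 0.328 and 0.384 CPM with morphine. The groups overlapped in both sexes, and with all libraries in neither change was called. The log2 fold change in males was -0.89 (SE 0.41), -1.11 and called without saline male 3, and -0.53 and not called without saline male 2. For the interaction, the change in males minus that in females was -1.67 (0.68, adjusted *p* = 0.985, edgeR's quasi-likelihood test). It was called in 5 of 6 other settings and in 6 of 12 fits without a library. The filter by the design matrix kept the same genes here and is not counted. It was not called without saline male 2, at -1.32, or without saline males 1 and 2, at -0.90, and it was -1.84 and called without morphine male 6.

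**Figure D2:**
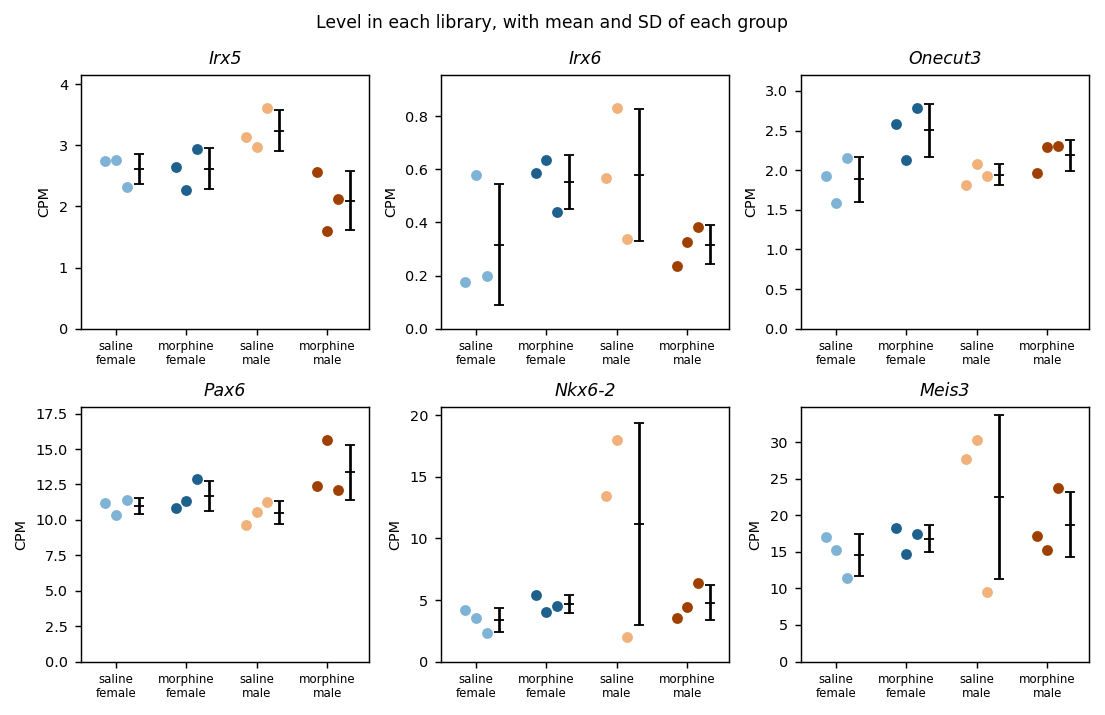
CPM of *Irx5*, *Irx6*, *Onecut3*, *Pax6*, *Nkx6-2* and *Meis3* in each library by group (points), with the mean and SD of each group of 3 (black). *Irx5* separates saline from morphine males, while for *Nkx6-2* and *Meis3* saline males 1 and 2 are above and saline male 3 is below the other libraries.

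In males, 0 of 6 Irx genes, 0 of 5 Nkx genes and 0 of 4 Pbx genes had a log2 fold change above 0, where 37.6% of all genes did. The median of the 4 Pbx genes, -0.03, was not below that of all genes in males, -0.06. The median of the Irx genes was -0.51 in males, and in females it was 0.13, with 3 of 6 above 0. All 6 Irx genes also stayed below 0 in males with scaling by total counts, from -0.76 for *Irx6* to -0.04 for *Irx2*. Without saline males 1 and 2, however, *Irx1* was at 0.44 and *Irx4* at 0.65, and *Nkx6-2* was above 0 too. Apart from *Irx5*, no Irx gene was called in males. In the other families the medians in males were -0.33 for 5 Nkx genes, -0.25 for 7 Lhx genes, -0.16 for 6 Pax genes, -0.16 for *Six4* and its 2 tested relatives, -0.13 for 10 Pou genes, -0.04 for 3 Meis genes, -0.03 for 4 Pbx genes, 0.11 for 2 Barhl genes and 0.16 for 3 Onecut genes, with 0 called in each.

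**Figure D3:**
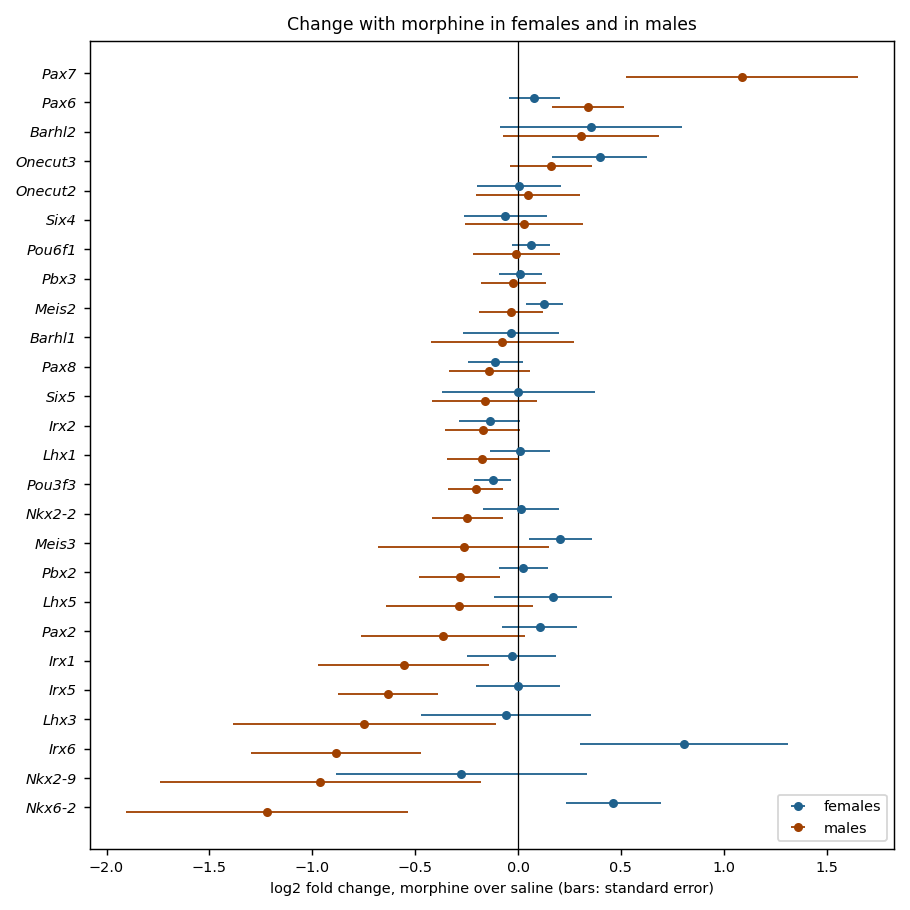
Log2 fold change of morphine over saline in females (blue) and in males (brown) for named members that were tested, with bars for the SE of edgeR's quasi-likelihood fit. *Irx5* in males, at -0.63, is the value that was called, and *Irx6* and *Nkx6-2* are on opposite sides of 0 in the sexes.

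Saline males differed among themselves in several members. *Nkx6-2* was at 13.5 and 18.0 CPM in saline males 1 and 2 and at 2.02 CPM in saline male 3, whereas the 9 libraries of the other groups lay between 2.35 and 6.35 CPM. So the gene had both its highest and its lowest levels among mice of the same group. Its log2 fold change was -1.22 (SE 0.69) in males, not called. Its interaction of -1.67 (0.78) was not called either, but it was in 4 of 7 other settings. The interaction was also called in 2 of 12 fits without a library, those without saline male 3 and without morphine male 6. The mature oligodendrocyte list, with markers of cells in which *Nkx6-2* is active, summed to 60516 and 63818 CPM in saline males 1 and 2, to 41964 CPM in saline male 3, and to 35896 to 45227 CPM in morphine males. Of its 10 genes, 2 were called lower in morphine males (*Cldn11* and *Mobp*) and 0 were above 0. The part of oligodendrocytes in the level of *Nkx6-2* was not tested.

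Saline males 1 and 2 were both above the other 10 libraries for 12 of 49 members (24.5%), and 22% of all genes tested showed the same. Besides *Nkx6-2*, at 3.89 times the mean of the other 10, these were *Lhx3*, a motor neuron factor (2.96 times), *Nkx2-9* (2.63 times), *Pax2* (2.03 times), *Irx1* (1.99 times), *Irx4* (1.95 times), *Meis3* (1.81 times), *Barhl1* (1.71 times), *Lhx5* (1.64 times), *Pbx2* (1.34 times), *Pou6f1* (1.25 times) and *Lhx4* (1.24 times). Both were below the other 10 for 6.12% of the members, among them *Meis1* at 0.870 times, and for 6.93% of all genes. *Irx4*, *Lhx4* and *Meis1* were named after their values were seen.

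*Meis3* and its paralogs, whose homeobox stretches are given above, showed both directions. *Meis3* was at 27.7 and 30.2 CPM in saline males 1 and 2 and at 9.56 CPM in saline male 3, with the other libraries between 11.4 and 23.8 CPM. *Meis1* was at 32.8 and 33.7 CPM in saline males 1 and 2 and at 41.3 CPM in saline male 3, with the others between 34.8 and 40.6 CPM. *Meis2* was at 88.9 and 93.1 CPM in saline males 1 and 2 and at 116.3 CPM in saline male 3, its highest value. Saline males 1 and 2 thus had the highest levels of *Meis3* and the lowest of *Meis1* among the libraries, and saline male 3 the lowest of *Meis3* and the highest of *Meis1*.

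The members that were high in saline males 1 and 2 were rich in GC. The GC content of the longest transcript of the 12 was 50.1% to 64.3%, with a median of 60.3%, while that of *Meis1*, which was low in both, was 42.4%. The 34 that were neither high nor low in both had a median of 52.5%. All 49 had a median of 55.3%, against 49.1% for all genes tested. Across the 49 members, the deviation of a library from the mean log2 CPM of each gene had a correlation with GC content of 0.62 in saline male 1, 0.75 in saline male 2, -0.59 in saline male 3 and -0.69 in saline female 6. Across the 19027 genes it was 0.57, 0.67, -0.66 and -0.50 in these libraries. In morphine male 6 it was 0.36 over the members and 0.47 over all genes. The points share a library, and genes are not independent replicates, so these values are descriptions. The spread itself was not particular to the members, with a median SD of log2 CPM of 0.28 both for them and for all genes tested.

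**Figure D4:**
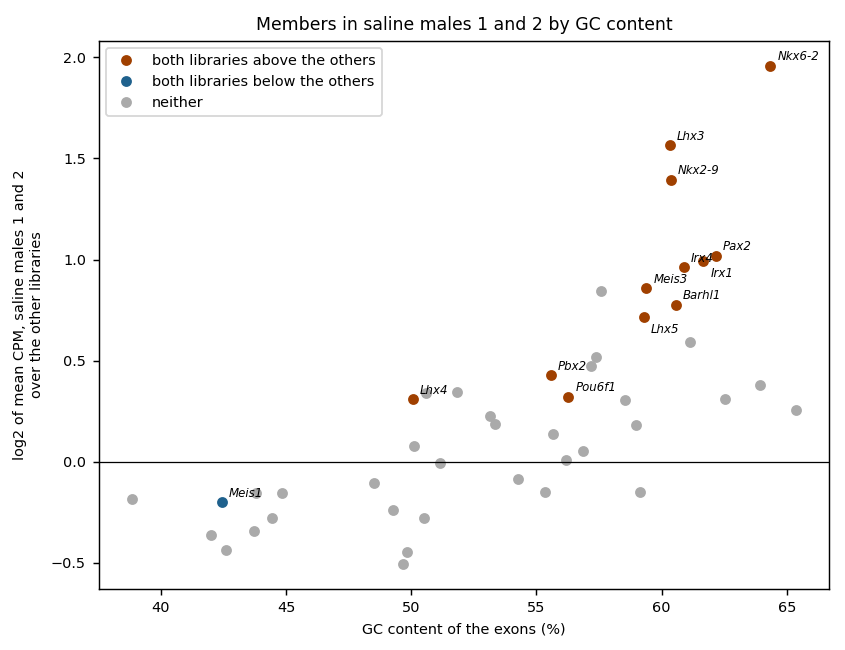
Log2 ratio of the mean CPM in saline males 1 and 2 over the mean of the other 10 libraries against GC content, for 46 of the 49 members tested. GC content is that of the longest transcript of a gene, although the axis label says exons. Members above the other 10 libraries in both saline males have GC contents of 50.1% to 64.3%, and *Meis1*, below them in both, has 42.4%.

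The result in males changed with which saline libraries entered. Without saline male 3, 14 of 49 members were called, 11 of them lower with morphine, and 28.6% of all genes were called. Without saline males 1 and 2, 14 of 53 members were called, 7 of them higher, and 31.1% of all genes were called. In that fit the remaining saline male is assumed to vary like the morphine males. The lists shared 4 members, *Nkx6-2*, *Meis3*, *Pax2* and *Lhx5*, and all 4 had opposite directions in them. For *Nkx6-2* the log2 fold change was -1.68 (SE 0.25) without saline male 3 and 1.21 (0.38) without saline males 1 and 2. For *Meis3* the values were -0.59 (0.19) and 0.94 (0.28), for *Pax2* -0.68 (0.18) and 0.79 (0.27), and for *Lhx5* -0.57 (0.19) and 0.71 (0.31). Of the 49 members tested in both fits, 27 differed in sign. *Irx5* was below 0 in both, at -0.50 (0.25) and -0.81 (0.32). *Nkx6-2* and *Pax2* had adjusted *p* values of 0.0108 and 0.0420 without saline male 3, and 2141 genes had one under 0.05 in that fit by edgeR's quasi-likelihood test.

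**Figure D5:**
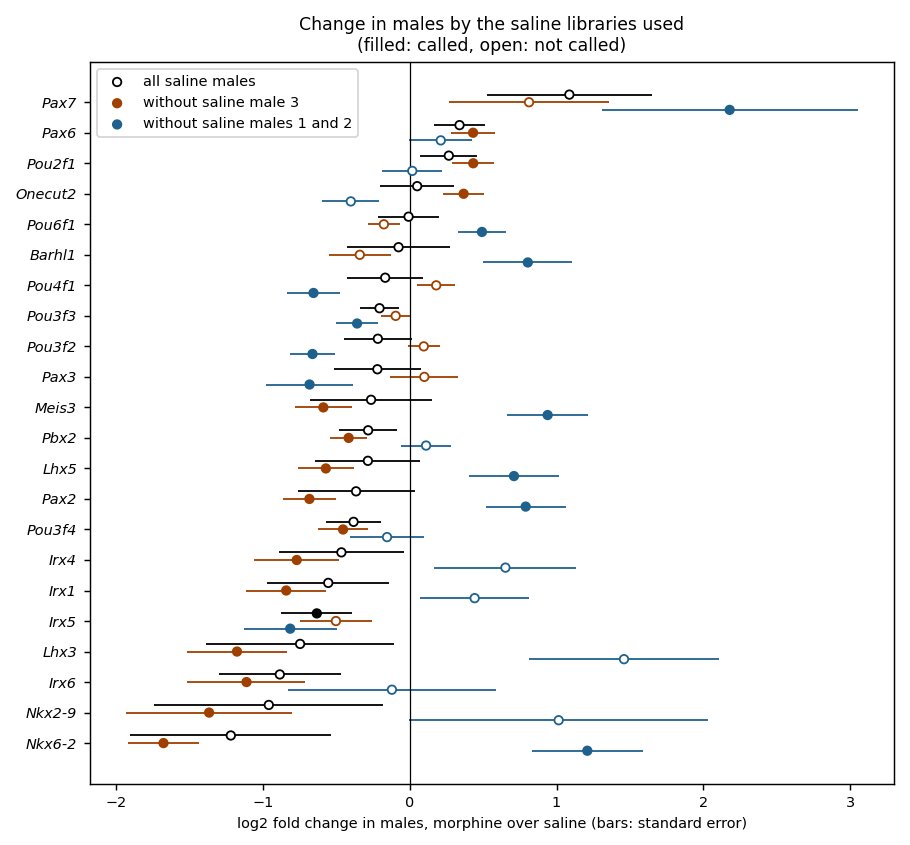
Log2 fold change in males for *Irx5* and other members called in either reduced fit (22 genes shown, tested in all 3 fits), with all saline males (black), without saline male 3 (brown) and without saline males 1 and 2 (blue), bars for SEs, and filled points for called values. *Nkx6-2*, *Meis3*, *Pax2* and *Lhx5* are called on opposite sides of 0 in the reduced fits.

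With offsets for GC content and exon length, chosen after the data were seen, 2 members were called in males, where 6.73% of all genes were called. These were *Pax7*, at 1.20 (SE 0.48), and *Pou3f4*, at -0.34 (0.14). *Irx5* was at -0.55 (0.64) and not called. *Pou3f4*, an X-linked POU factor, was at 5.25, 5.34 and 4.10 CPM in saline males 1 to 3 and at 3.69, 3.64 and 3.99 CPM in morphine males 4 to 6, with a log2 fold change of -0.38 (0.19) before the offsets. All morphine males were below all saline males.

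Other genes of these networks were compared from lists. Among 46 homeodomain genes outside the 11 families, 1 was called higher (*Lmx1a*, 0.88 with SE 0.36) and 1 lower (*Msx2*, -0.63 with 0.23) with the sexes together, 0 of 44 in females, and 2 of 44 in males, both higher (*Lmx1a*, 0.91 with 0.28, and *Otx2*, 1.02 with 0.41). The choroid plexus, where *Otx2* and *Lmx1a* are active, had 5 of 7 markers called higher in males, and its summed level was 424 to 852 CPM in morphine males and 272 to 534 CPM in saline males. In females 0 of the 7 were above 0 and 0 were called, with a median of -0.78. Their summed level was 12.2, 42.8 and 482 CPM in saline females 4 to 6 and 31.6 to 169 CPM in morphine females. These groups overlapped, and the highest level was in saline female 6. With the sexes together 0 of the 7 were called, with a median of 0.05. *Lmx1a* was at 0.79 (SE 0.59) in females and was not called there. The part of the choroid plexus in these values was not tested. Among 25 partner proteins of the members, which include the LIM cofactors Ldb, the Eya phosphatases and the Tle corepressors, 0 were called in any fit, with medians of -0.03 with the sexes together, 0.02 in females and -0.12 in males.

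Markers of other cell types were compared too. Of 8 oligodendrocyte precursor markers, *Olig2* was called lower in males (-0.45 with SE 0.17). *Olig2* was at 80.9, 93.1 and 59.4 CPM in saline males 1 to 3 and at 56.4 to 57.4 CPM in morphine males. It shares this lineage with *Nkx2-2*. That gene was at 10.8, 13.8 and 11.5 CPM in saline males and 11.2, 9.51 and 9.86 CPM in morphine males. Its log2 fold change was -0.25 (0.17). The part of oligodendrocyte precursors in the level of *Nkx2-2* was not tested. Meningeal fibroblast markers were called lower for 2 of 8 genes with the sexes together and for 4 of 8 in females, and *Zic2* of the granule cell list was called lower in females. For brainstem neurons, Purkinje cells, astrocytes, forebrain neurons, sensory ganglia, anterior pituitary and B cells, 0 markers were called with the sexes together or in either sex. Few markers of the last 2 lists could be tested. With the sexes together these were 2 of 10 for the pituitary and 2 of 6 for B cells, and in each sex 1 or 2. Of the skeletal muscle list, *Myh8* was called higher with the sexes together, while 1 of the 6 tested was above 0, with a median of -0.86, and the median in males was -1.63. The summed level of this list was 37.1 CPM in saline male 2 and 1.38 to 5.11 CPM in the other 11 libraries. The anterior pituitary, a source of *Lhx3*, had *Cga* and *Pitx1* at 0 in every library and a summed level of at most 10.4 CPM. Most of this sum was *Tshb*, which ranged from 6.61 to 10.1 CPM and was at 6.62 and 7.99 CPM in saline males 1 and 2. *Pomc* had its highest levels in these 2 males, as *Lhx3* did, at 0.745 and 1.23 CPM. Elsewhere *Pomc* ranged from 0.0297 to 0.413 CPM. The part of the pituitary in the level of *Lhx3* was not tested.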

How the data were processed

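Per the labels and the study's methods, poly-A RNA was sequenced as 100 bp single-end reads on 1 lane. The authors used Trimmomatic for trimming, STAR for alignment to mm10, and featureCounts for counting on exons of an Ensembl annotation. The deposited values are read counts per gene for 12 libraries. They are whole numbers with different totals, so they were treated as raw although the paper calls them normalized.

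The main test was edgeR's quasi-likelihood test (version 4.0.16, R 4.3.3) on the whole table, after TMM normalization and filterByExpr by the 4 groups. There were 4 fits: all mice with sex as a covariate, each sex by itself, and all mice with a term for treatment by sex. SEs were taken from the fold change and the F statistic, and *p* values were adjusted with Benjamini-Hochberg over all genes tested. With 3 mice against 3, the smallest *p* of an exact permutation test is 0.1. Levels are CPM with TMM factors over all 12 libraries. Positions, exon length and GC content came from GENCODE M21 on GRCm38, where all 55418 symbols were found and 115 stood for more than 1 gene. GC content is that of the longest transcript of a gene. Exon length is the union of all exons, so the level per kb of genes with long alternative exons is understated.

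Members and gene lists were chosen with earlier results of these data known. Named members are those called in any fit, the 2 of each family with the highest level per kb, *Onecut3* and *Pax6* (listed by the study), the 5 with the widest spread of log2 CPM, and *Nkx2-2* and *Nkx6-2*. Others are marked as named after their values were seen. Some members enter the counts but are not reported singly here. Alternatives were exactTest of edgeR, DESeq2 1.42.0 (its Wald test and its size factors), total counts, other filters, no sex covariate, the replicate number as a block, the fit of all mice for each sex, offsets for GC content and exon length (loess, span 0.5), and leaving out libraries. The dam, a covariate of the study, is in no label and was not used. In simulated data with 200 changed genes and a log2 fold change of 1, the call rule found 92.7% of changed genes with the sexes together, 93.8% in females and 76.5% in males. At 0.5 these were 61.2%, 76.8% and 42.3%. It also called 4.68% to 4.94% of unchanged genes, a larger share than it called in the deposited data, so the shares found may not hold for these data.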

Additional observations from a re-analysis of the deposited data

Results flagged for a closer look

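Each of the 29 named members was checked in the 6 saline and in the 6 morphine libraries for a library far from the rest, which gave 58 checks and 2 cases, and chance alone gives about 1 in 20. *Dlx2* was at 0.738 CPM in morphine female 1, with the next morphine library at 0.288 CPM and the lowest at 0.0297 CPM. *Six4* was at 7.34 CPM in morphine male 5, with the next morphine library at 5.24 CPM and the lowest at 4.25 CPM. Without that library the log2 fold change of *Six4* in males was -0.21, against 0.03 with it.

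*Irx6* passed the unadjusted threshold for a difference between the sexes in its change with morphine, with an interaction of -1.67 on the log2 scale, but not after adjustment (adjusted *p* = 0.985, edgeR's quasi-likelihood test). The call was lost in 6 of 12 fits without a library, and the share of members called was 2.04%, against 2.94% of all genes. All 3 libraries of a group lay on the same side of the other group in neither sex.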

How the results depend on the processing

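With the sexes together, 0 members were called, where 1.24% of all genes were. Total counts gave 2. No filter on low counts, at least 10 counts in every library, no sex covariate and the filter by the design matrix gave 1 each. In these settings 0.959% to 2.01% of all genes were called. Without saline males 1 and 2, 4 of 55 members and 11.4% of all genes were called. *Meis3* then moved from -0.02 to 0.45 and *Nkx6-2* from -0.39 to 0.70. Fits without a single library gave 0 to 3, with 1.02% to 2.46% of all genes called. In females, 0 were called (1.81% of all genes), 2 with no filter (3.15%), 1 with the offsets (1.77%), and 0 to 1 without a library (1.12% to 7.95%). In males, 1 was called (2.99% of all genes), 2 with no filter (2.83%), 3 from the fit of all mice (4.15%) and 2 with the offsets (6.73%). Fits without a library gave 0 to 14, with 0 without morphine male 5 (1.61%) or 6 (2.47%) and 14 without saline male 3 (28.6%). Without saline males 1 and 2, *Barhl1* moved from -0.08 to 0.80, *Lhx5* from -0.29 to 0.71 and *Meis3* from -0.26 to 0.94. *Nkx6-2* moved from -1.22 to 1.21, *Pax2* from -0.37 to 0.79 and *Pou6f1* from -0.01 to 0.49. For the interaction, 1 was called, 3 with the Wald test of DESeq2, 2 with its size factors, 2 with no filter, 0 with at least 10 counts in every library (*Irx6* was filtered out), 3 with the offsets, and 7 without saline males 1 and 2, where *Barhl1* (0.87), *Meis3* (0.76), *Pax2* (0.72) and *Pou6f1* (0.46) reversed, and 0 to 10 without a library (10 without saline male 3). Apart from the libraries and filters left out, the cause of these moves was not tested.

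Scaling by total counts moved the share of called genes that were higher from 49.4% to 71.5% with the sexes together, from 64.3% to 91.3% in males, and from 54.7% to 81.2% for the interaction. It moved the median of all genes in males from -0.06 to 0.06, and raised the members above 0 in males from 12 to 20. Replicate numbers were shared by a saline and a morphine mouse of different sex. Their correlations of -0.34 to 0.18 gave no pairing, and with the replicate number as a block 0 members were called. No paired analysis was possible because the groups of a sex share no numbers within the sex-separate fits.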
